A study of Mus musculus with 8 samples.

Results

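The genes described here form the circadian clock of mouse liver and its nearest output: Per1, Per2, Per3, Cry1, Clock, Nr1d1, Nr1d2, Dbp, Tef and Usp2. They were chosen by gene symbol in the platform annotation, which gave 19 probe sets for the 10 genes out of 22690 probe sets on the array. Of the 19, 13 probe sets of 9 genes were bright enough to be tested, and the other 6 were not. None of the 13 passed the test in any comparison of the study. Between T0901317 and vehicle livers the largest differences were those of Per3 1421087_at, Usp2 1417169_at and Per2 1417602_at, at 2.41, 2.68 and 2.02 times the vehicle level (geometric means of 4 arrays against 4). The other tested Per3 probe set, 1421086_at, was at 0.915 times that level. Livers of the same group could differ by more than 2.68-fold, with 4.44-fold for Dbp and 6.37-fold for a second Usp2 probe set between both GFP vehicle livers.

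The clock is a loop of transcription and repression. CLOCK and BMAL1 bind E-boxes and drive the Per, Cry and Nr1d genes; PER and CRY proteins then repress CLOCK and BMAL1, and the nuclear receptors REV-ERBα (Nr1d1) and REV-ERBβ (Nr1d2) repress Bmal1. The same E-boxes drive Dbp, and the PAR bZIP factors DBP, TEF and HLF carry the rhythm to D-box genes, which in liver include enzymes and transporters of drug and lipid metabolism. In liver Dbp, Tef, Nr1d1, Per and Usp2 transcripts peak in the later part of the day or at dusk, while Bmal1, Clock, Nfil3 and Cry1 peak in the night or towards dawn.

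All mice, controls included, were of C57B6 background and lacked the Low Density Lipoprotein Receptor. Each had received an adeno-associated virus (AAV2.8) at 10 weeks of age, with GFP or human LXRα behind the human thyroxine binding globulin promoter, which is active in hepatocytes. All ate a Western diet for 12 weeks and were 8 months old, per the labels. T0901317, a synthetic agonist of the liver X receptors, was injected intraperitoneally at 5 mg/kg for 3 days, or vehicle was given in its place. This makes 4 groups of 2 livers (GFP vehicle, GFP T0901317, LXRα vehicle, LXRα T0901317), with 1 array per liver. The hour at which livers were taken is not given in the sources used here, and it matters for these genes.

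Values are the deposited array intensities on a linear scale, and differences are on the log2 scale after values under a floor of 7.50 were raised to it. They are followed by the standard error (SE) of limma and its p-value adjusted over all 15838 tested probe sets. A level belongs to 1 probe set and was not set against that of another. RNA came from whole liver, so fewer cells of a type and less RNA per cell cannot be told apart.

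Some arrays stood apart. GFP vehicle replicate 2 held exocrine pancreas transcripts (Cela2a at 11030 against 12.1 to 27.8 on the other arrays), and the summed level of 7 pancreas and muscle markers was 22719 there against 208 to 412 elsewhere. GFP T0901317 replicate 2 held the muscle transcript Acta1 at 183, against 22.1 to 30.2 on the other arrays. Ratios of 3' to 5' β-actin signal, a sign of RNA quality, were 2.08 to 3.08 on vehicle arrays, and on T0901317 arrays 7.56 and 11.0 with GFP and 2.75 and 36.3 with LXRα. The 18S control signal was 245 to 638 on vehicle and 11.8 to 45.3 on T0901317 arrays, without overlap. Summed hepatocyte markers (10 of 12 genes measured, none at the floor on all arrays) lay between 99457 and 123539. Summed macrophage markers, all 10 measured, ranged from 1496 to 8575, with GFP livers at 3200 to 8575 and LXRα livers at 1496 to 4544. Summed endothelial markers, all 8 measured, were 651 to 1048 on vehicle and 1285 to 1409 on T0901317 arrays, without overlap. Of these, Lyve1, a hyaluronan receptor of sinusoids, rose with T0901317 by 2.05 on the log2 scale (SE 0.29, adjusted p = 0.0489, limma). Summed stellate cell and matrix markers, all 8 measured, were 881 to 1074 in LXRα vehicle livers and 1918 to 3258 in the other groups. Lymphocyte, cholangiocyte and erythroid sums were 191 to 518, 82.0 to 112 and 193 to 441. The part of these differences in the clock values was not tested, except where a value is given.

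The promoters show which clock elements lie next to the start sites of the genes measured. RefSeq promoters of GRCm38.p6, from 250 bases before to 50 after a start, were matched for 9 of the 10 genes, with 13 promoters. Motifs were searched on both strands, namely the E-box CACGTG of CLOCK and BMAL1, the D-box TTANGTAA of DBP, TEF and HLF, and the receptor half-site AGGTCA of ROR and REV-ERB. CACGTG was found in 7.15% of all 32851 promoters, and among the genes here in 4 promoters of Per1, Cry1 and Tef. TTANGTAA was found in 2.32% of all promoters and here in Per3, with 2 matches. AGGTCA was found in 16.3% of all promoters and here in Per1, Nr1d2 and Clock. No match here overlaps another. The stretches with an E-box or D-box follow, 5′ to 3′ on the strand of the gene, with the motif in capitals. They lie at chr11:69098743-69098828 (plus strand) for Per1, chr4:151044776-151044910 (minus strand) for Per3, chr10:85185069-85185154 (minus strand) for Cry1, and chr15:81802506-81802591 and chr15:81811236-81811321 (both plus strand) for 2 start sites of Tef.
Per1: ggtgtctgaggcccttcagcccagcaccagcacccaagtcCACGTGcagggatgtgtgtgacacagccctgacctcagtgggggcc
Per3: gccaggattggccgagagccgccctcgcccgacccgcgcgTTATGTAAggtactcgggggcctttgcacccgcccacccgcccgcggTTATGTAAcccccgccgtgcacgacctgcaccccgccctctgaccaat
Cry1: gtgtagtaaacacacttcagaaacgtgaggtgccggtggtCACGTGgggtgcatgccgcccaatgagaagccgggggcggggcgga
Tef, first start: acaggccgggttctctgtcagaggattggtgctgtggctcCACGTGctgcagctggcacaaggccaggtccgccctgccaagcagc
Tef, second start: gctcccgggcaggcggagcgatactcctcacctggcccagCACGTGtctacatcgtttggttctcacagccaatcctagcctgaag
The Per3 stretch carries its 2 D-boxes 205 and 158 bases before the start, and the Per1 E-box lies 166 bases before it. A match is a run of letters and not a measured binding site.

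**Figure D1:**
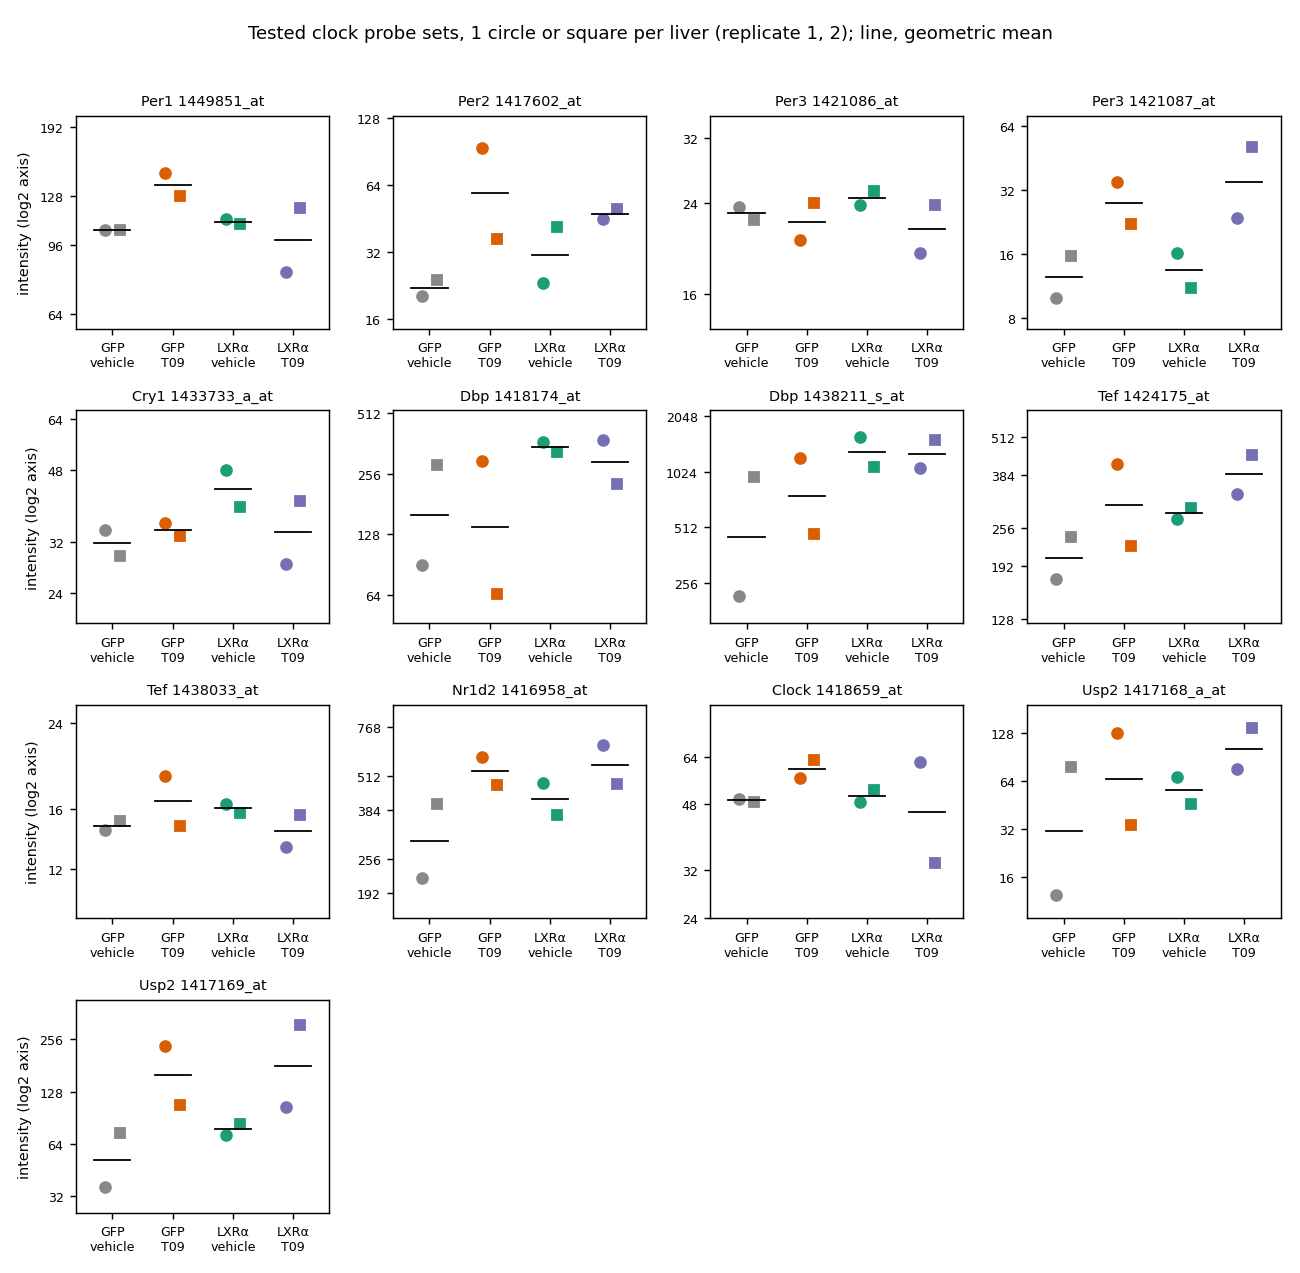
Intensity (log2 axis) of the 13 tested clock probe sets in the 4 groups, where each circle or square is 1 liver (replicate 1 or 2), the line is the geometric mean and T09 is T0901317. For Per3 1421087_at and Usp2 1417169_at all 4 T0901317 livers lie above all 4 vehicle livers, and for both Dbp probe sets the livers of a GFP group lie far apart.

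Dbp is the first output of the clock. Probe set 1438211_s_at read 216 and 959 in GFP vehicle livers, 1220.4 and 470.1 with GFP and T0901317, 1569.7 and 1082 with LXRα and vehicle, and 1073 and 1517 with LXRα and T0901317. The LXRα livers all read 1073 or more, whereas each GFP group holds 1 low liver. On the log2 scale its group levels (mean ± SD, n = 2) were, from low to high, 8.83 ± 1.52 in GFP vehicle, 9.57 ± 0.97 in GFP T0901317, 10.32 ± 0.35 in LXRα T0901317 and 10.35 ± 0.38 in LXRα vehicle, and no neighbours in this order differ beyond their spread. The second Dbp probe set, 1418174_at, read 90.3 and 282, 297 and 64.6, 368 and 326, and 377 and 228 in the group order used above. Its low livers are the same, GFP vehicle replicate 1 and GFP T0901317 replicate 2.

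The transgene comparison among vehicle livers asks what LXRα does without the agonist. All 13 tested clock probe sets were higher with LXRα, where 59.8% of all probe sets were higher. Their median log2 difference was 0.49 against 0.05 over all probe sets. None passed the limma test, and 0 of the 13 had an unadjusted p under 0.05. Of all tested probe sets 0.00631% were called and 5.15% had such a p. Dbp had the largest difference, 1.52 (SE 0.74, 95% interval -0.23 to 3.27, adjusted p = 0.963) for 1438211_s_at and 1.12 (SE 0.79, adjusted p = 0.963) for 1418174_at. Without GFP vehicle replicate 1 the differences were 0.44 and 0.30, and without GFP vehicle replicate 2, the array with pancreas transcripts, they were 2.59 and 1.94. Among T0901317 livers the transgene comparison gave a median of 0.08 over the members, with 7 of 13 higher, and 0.75 (SE 0.74, adjusted p = 1) for Dbp 1438211_s_at. There 0% of all probe sets were called, 57.5% were higher and 2.24% had an unadjusted p under 0.05 in limma, against 0 of the 13 members.

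Usp2 encodes a ubiquitin-specific protease with strong daily rhythm in liver, and it has 2 tested probe sets. Probe set 1417169_at read 35.8 and 74.2 in GFP vehicle livers, 236 and 107 with GFP and T0901317, 72.3 and 83.0 with LXRα and vehicle, and 104 and 311 with LXRα and T0901317. All T0901317 livers, from 104 upward, exceed the highest vehicle liver at 83.0. Probe set 1417168_a_at read 12.3 and 78.6, 128 and 33.7, 67.8 and 46.0, and 76.3 and 138 in the same order, and its groups overlap. Its 2 GFP vehicle livers differ by 6.37-fold, a replicate difference at least as large as that of 99.7% of tested probe sets in that group.

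Tef, a PAR bZIP factor like DBP, was read by 1424175_at at 174 and 239 in GFP vehicle livers, 418 and 223 with GFP and T0901317, 274 and 299 with LXRα and vehicle, and 333 and 449 with LXRα and T0901317. Its highest livers are treated ones, but 1 treated liver lies among the vehicle livers. The second tested Tef probe set, 1438033_at, stayed between 13.3 and 18.7 on all arrays, and the third, 1450184_s_at, was above the floor on 3 of 8 arrays and was not tested.

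Per1, Per2 and Per3 encode the period repressors. Per2 (1417602_at) read 20.2 and 23.9 in GFP vehicle livers, 93.7 and 36.7 with GFP and T0901317, 23.3 and 41.3 with LXRα and vehicle, and 45.1 and 49.6 with LXRα and T0901317. Only the pair 41.3 in a vehicle liver and 36.7 in a treated liver breaks the separation of the treatments. Per3 (1421087_at), whose promoter carries the D-boxes printed above, read 9.92 and 15.7, 34.8 and 22.2, 16.1 and 11.1, and 23.6 and 51.3 in the same order. Every treated liver exceeds every vehicle liver, although all these levels are low. The other tested Per3 probe set, 1421086_at, lay between 19.2 and 25.3 and showed no such separation, so the gene's 2 tested probe sets disagree. Per1 (1449851_at) read 105 and 105, 147 and 128, 112 and 108, and 82.0 and 119.5, a range of 1.79-fold over all livers.

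Among the other repressors and the activator, Nr1d2 (REV-ERBβ, 1416958_at) read 219 and 404 in GFP vehicle livers, 597 and 475 with GFP and T0901317, 481 and 368 with LXRα and vehicle, and 659 and 478 with LXRα and T0901317. Its treated livers are above all vehicle livers but the one at 481. Cry1 (1433733_a_at), the cryptochrome that represses CLOCK and BMAL1, read 34.2 and 29.5, 35.5 and 33.1, 47.9 and 38.8, and 28.3 and 40.2. Clock (1418659_at), the activator's own gene, read 49.3 and 48.7, 56.2 and 62.7, 48.5 and 52.3, and 62.0 and 33.5. Neither gene separates the treatments. The only Nr1d1 probe set (1426464_at) read 4.35 to 7.23, under the floor on all 8 arrays, as did Per2 1417603_at and Per3 1460662_at, so no difference could be measured for REV-ERBα. Clock 1418660_at was above the floor on 4 arrays, and Nr1d2 1416959_at, at 7.87 to 16.3, missed the filter on the mean, so neither was tested. Nr1d2 1416959_at was above the floor on all 8 arrays, with 9.18 to 16.3 in vehicle and 7.87 to 9.18 in treated livers. No treated liver exceeded a vehicle liver there, a direction opposite to that of 1416958_at, at levels near the floor.

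The comparison of T0901317 with vehicle, averaged over both transgenes, asks what the agonist does in these livers. It gave 10 of 13 member probe sets higher and 3 lower, with a median log2 difference of 0.35 against -0.04 over all probe sets. Of all probe sets 45.7% were higher. In limma 0 members were called and 4 had an unadjusted p under 0.05, where 0.568% of all probe sets were called and 23.2% had such a p. The differences were 1.27 for Per3 1421087_at (SE 0.31, 95% interval 0.55 to 1.99, adjusted p = 0.0984), 1.42 for Usp2 1417169_at (SE 0.44, interval 0.37 to 2.47, adjusted p = 0.146) and 1.01 for Per2 (SE 0.32, interval 0.25 to 1.78, adjusted p = 0.152). Nr1d2 followed with 0.63 (SE 0.25, adjusted p = 0.206) and Tef 1424175_at with 0.51 (SE 0.25, adjusted p = 0.255). The other tested probe sets of Per3 and Usp2, 1421086_at and 1417168_a_at, were at -0.13 (SE 0.12) and 0.98 (SE 0.66). For Dbp the 2 probe sets were at 0.35 (SE 0.52) and -0.22 (SE 0.56), and for Per1, Cry1 and Clock the values were 0.12, -0.12 and 0.07, each smaller than its SE. The 4 treated livers were above the 4 vehicle livers without overlap for 2 of 13 member probe sets and below them for 0, where 8.20% and 8.44% of all probe sets were so placed.

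**Figure D2:**
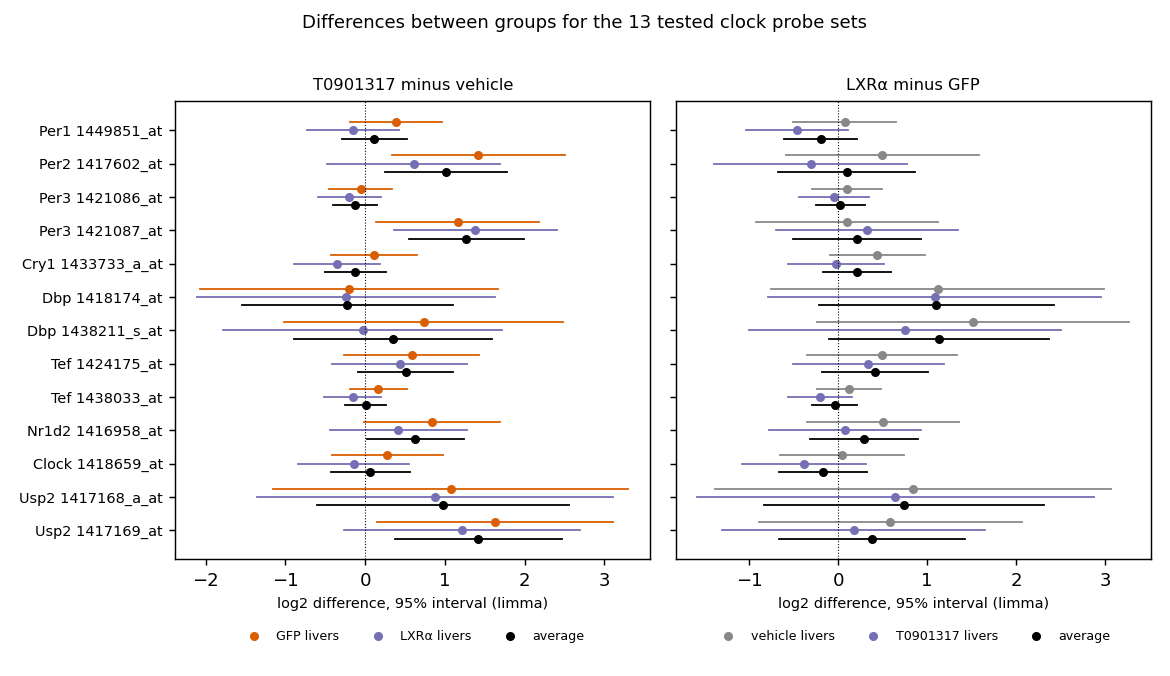
Log2 differences with 95% intervals from limma for the 13 tested clock probe sets, left for T0901317 minus vehicle and right for LXRα minus GFP, each within the other factor and averaged. Per3 1421087_at, Usp2 1417169_at, Per2 and Nr1d2 have averaged T0901317 intervals that lie above 0 before adjustment over all probe sets, and the Dbp intervals are among the widest.

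Within the GFP livers the agonist comparison gave 1.42 for Per2 (SE 0.46, adjusted p = 0.287), 1.63 for Usp2 1417169_at (SE 0.62, adjusted p = 0.343), 1.16 for Per3 1421087_at (SE 0.43, adjusted p = 0.333) and 0.84 for Nr1d2 (SE 0.36, adjusted p = 0.385). There 11 of 13 members were higher, where 45.0% of all probe sets were higher. Limma called 0 members and 3 had an unadjusted p under 0.05, where 0% of all probe sets were called and 13.2% had such a p. Within the LXRα livers the same differences were 0.61 (SE 0.46), 1.21 (SE 0.62), 1.38 (SE 0.43) and 0.42 (SE 0.36). Here 6 of 13 members were higher, where 44.4% of all probe sets were higher. Limma called 0 members and 1 had an unadjusted p under 0.05, where 0.0253% of all probe sets were called and 13.2% had such a p. The interaction, which tests whether the agonist's effect differs between transgenes, was negative for 12 of 13 members, with a median of -0.41 and an adjusted p of 1 for each. Of all probe sets 46.8% had a positive interaction. In limma 0 of the 13 had an unadjusted p under 0.05, where 0.00631% of all probe sets were called and 4.77% had such a p. Of the 13, only Per1 had effects that were opposite in both settings of the other factor without overlap, a pattern of 6.16% of all tested probe sets. The transgene effect averaged over treatments, with 0.00631% called, gave 0 members called and 0 with an unadjusted p under 0.05, where 2.66% of all probe sets had such a p. Comparisons that use the same GFP vehicle livers share their error.

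The 3' to 5' ratios of control probe sets moved with the treatment, and the values of Per3 and Usp2 were smaller with the β-actin ratio in the fit. The ratio of dap, a bacterial control and not a liver transcript, was 1.67 to 2.20 on vehicle and 2.86 to 21.8 on T0901317 arrays. Treatment, liver RNA quality and the handling of the arrays cannot be told apart here. With the log2 β-actin ratio as a covariate, an alternative added after the values were seen, the averaged agonist difference was 0.77 for Per3 1421087_at (adjusted p = 0.275), 0.70 for Usp2 1417169_at (adjusted p = 0.473) and 1.02 for Per2 (adjusted p = 0.276). LXRα T0901317 replicate 1 is the treated liver whose β-actin ratio, 2.75, lies within the vehicle range. It lies outside that range for 3' to 5' ratios of Gapdh (1.27 against at most 1.16), pyruvate carboxylase (26.4 against 11.2) and dap (2.86 against 2.20), and for 18S (45.3 against at least 245). On it Usp2 1417169_at read 104 against at most 83.0 in vehicle livers, Per3 1421087_at 23.6 against 16.1, Per2 45.1 against 41.3, Nr1d2 659 against 481 and Tef 1424175_at 333 against 299. The same array was the lowest of the 8 for Per1 (82.0), Cry1 (28.3), Per3 1421086_at (19.2) and Tef 1438033_at (13.3). Of all tested probe sets 17.1% were lowest there. Without that array limma called Per3 1421087_at (1.55, adjusted p = 0.0285) and Usp2 1417169_at (1.82, adjusted p = 0.048), 2 of 13 members, where 9.51% of all probe sets were then called. Without the array with pancreas transcripts, GFP vehicle replicate 2, the differences were 1.43 for Per3, 1.68 for Usp2 and 1.07 for Per2.

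Other genes of the loop were read from a list chosen with earlier results of these data known. Of 11 other core clock genes 6 were tested, 5 were higher and 1 lower with T0901317, the median was 0.34 and 0 were called by limma. Hlf, the PAR bZIP partner of Dbp and Tef, read 47.6 and 83.5 in GFP vehicle livers, 355 and 124 with GFP and T0901317, 63.1 and 87.4 with LXRα and vehicle, and 105 and 364 with LXRα and T0901317. Its treated livers lie above all vehicle livers, with a difference of 1.57 (SE 0.50, adjusted p = 0.151), which was 0.76 with the β-actin covariate. Bmal1 was at 0.00 (SE 0.16) and Cry2, the other cryptochrome, at 0.53 (SE 0.32, adjusted p = 0.316). Of 9 kinases and ligases that modify clock proteins 4 were tested, with 2 higher and 2 lower, a median of -0.04 and 0 called. Csnk1d, which phosphorylates PER, was at -0.47 (SE 0.16, adjusted p = 0.17).

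Among clock output genes of liver, 12 of 14 were tested, with 8 higher, 4 lower, a median of 0.08 and 0 called. Nr1i3, the xenobiotic receptor CAR and a known target of the PAR bZIP factors, read 177 to 264 in vehicle and 84.5 to 153 in T0901317 livers, without overlap. Its difference was -0.92 (SE 0.23, adjusted p = 0.105, limma), and -1.13 to -0.64 over the alternatives run. Of the 12 output genes 1 was lower and 0 higher without overlap, where 8.44% and 8.20% of all probe sets were so placed. Alas1, the first enzyme of haem synthesis, was at 0.12 (SE 0.33) and Wee1, a cell cycle kinase under clock control, at 0.48 (SE 0.27, adjusted p = 0.292).

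**Figure D3:**
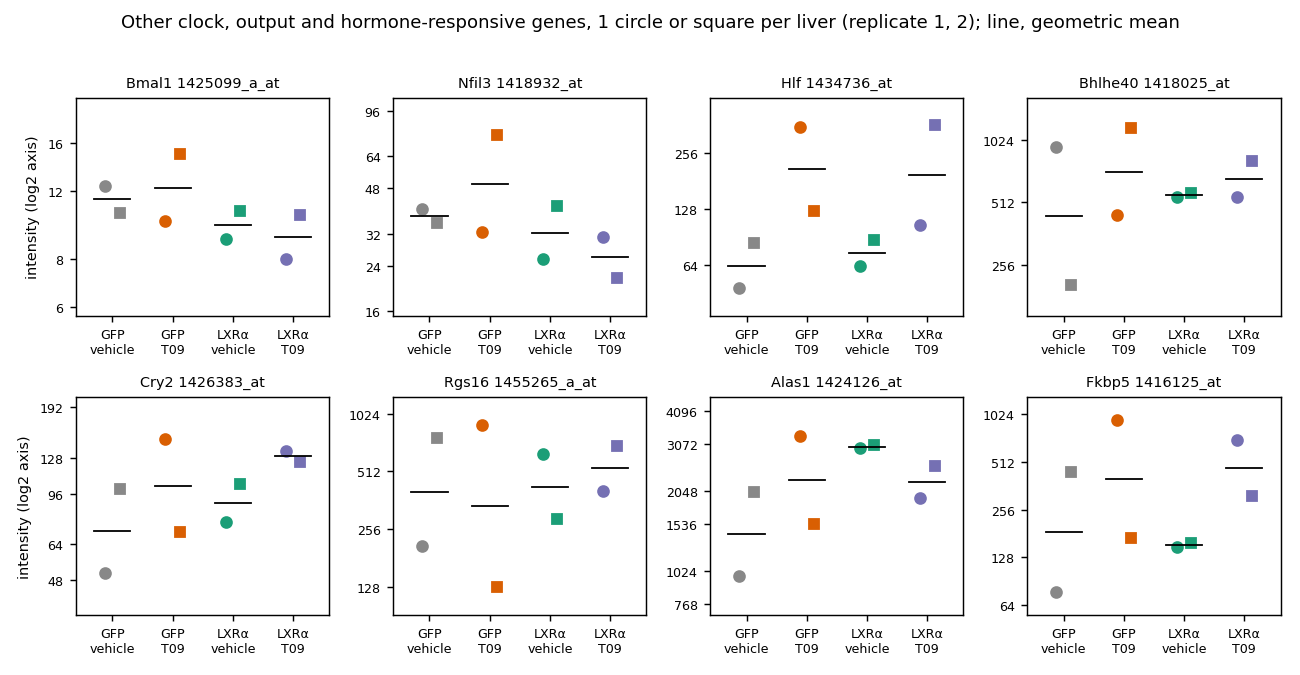
Intensity (log2 axis) of 7 other clock and output genes and of Fkbp5, a glucocorticoid-induced chaperone, in the same 8 livers, drawn as in the plot of the member probe sets. Hlf is higher in all 4 T0901317 livers than in any vehicle liver, while Bmal1 and Bhlhe40 are highest in GFP vehicle replicate 1 and GFP T0901317 replicate 2. The Bmal1 levels, 7.98 to 15.0, are near the floor of 7.50.

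Because these transcripts follow the hour of the day, the arrays were checked for the pattern that a shift in the time of tissue collection would give, with day-phase and night-phase genes moved in opposite directions. Each of 9 day-phase genes (Dbp, Tef, Hlf, Nr1d2, Per1, Per2, Per3, Usp2, Wee1) and 4 night-phase genes (Clock, Bmal1, Cry1, Nfil3) was centred on its own mean log2 level, with 1 probe set per gene, the brightest, and averaged on each array. For Per3 and Usp2 this choice takes 1421086_at and 1417169_at. The day-phase mean was -0.87 and -0.23 in GFP vehicle livers, 0.70 and -0.15 with GFP and T0901317, -0.18 and -0.04 with LXRα and vehicle, and 0.13 and 0.65 with LXRα and T0901317. The night-phase mean was 0.08 and -0.09, -0.01 and 0.46, -0.08 and 0.10, and -0.16 and -0.29 in the same order. The day-phase genes spread more between livers than the night-phase genes, and in both sets the treated livers overlap the vehicle livers.

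The day-phase minus night-phase level ran from -0.95 in GFP vehicle replicate 1 to 0.94 in LXRα T0901317 replicate 2. It was 0.71 and -0.61 in the 2 GFP T0901317 livers, so livers of 1 group lie on both sides of 0. The 4 remaining livers were between -0.14 and 0.29. T0901317 livers were 0.66 higher than vehicle livers on average, and LXRα livers were 0.43 higher than GFP livers with vehicle and 0.57 higher with T0901317, where the pooled SD within groups was 0.59. With T0901317, averaged over both transgenes, 8 of 9 day-phase genes were higher, but the night-phase genes were split, 2 higher and 2 lower. With LXRα among vehicle livers these numbers were the same. With LXRα among T0901317 livers 5 of 9 day-phase genes were higher and all 4 night-phase genes were lower. These are descriptions without a test. GFP vehicle replicate 1 held the lowest value of the 8 arrays for 6 of the 9 day-phase genes, where 10.5% of all tested probe sets are lowest there. On LXRα T0901317 replicate 2 all 9 day-phase genes were above their own mean, and the share of all probe sets so placed was not counted. This array was the highest of the 8 for 3 of the 9, where 16.5% of all tested probe sets are highest there. Its β-actin ratio, 36.3, was also the highest of the 8. The part of RNA quality in its position was not tested.

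**Figure D4:**
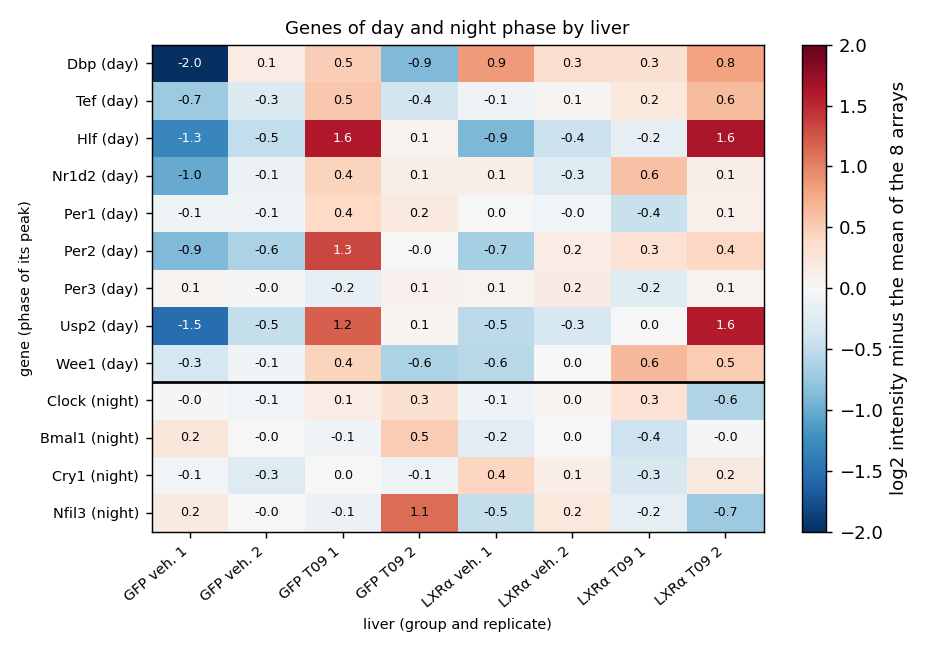
Centred log2 level of the 9 day-phase and 4 night-phase genes on each array (colour and printed value, 0 is the gene's mean over the 8 arrays). GFP vehicle replicate 1 is low for most day-phase genes, with a mean of -0.87, and GFP T0901317 replicate 1 and LXRα T0901317 replicate 2 are high, with means of 0.70 and 0.65.

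A pair of livers from different treatments shared a pattern, noticed after the values were seen. The pair was picked from these same values, so the counts and shares that follow are a description and not a test. GFP vehicle replicate 1 and GFP T0901317 replicate 2 were the 2 lowest of the 8 arrays for 4 of 13 member probe sets (both of Dbp, Tef 1424175_at and Usp2 1417168_a_at), where 1.43% of all probe sets have these arrays lowest. They were also lowest for Rgs16, a G protein regulator with a feeding and clock rhythm, at 210 and 129 against 288 to 893, for Cry2 at 50.8 and 70.4 against 76.6 to 149, for Nampt at 59.1 and 61.3 against 80.5 to 174, and for Alas1 at 976 and 1534 against 1925 to 3314. These are 3 of 12 output genes and 1 of 6 other core clock genes tested, and 0 of 4 kinases and ligases were so placed. This pair was highest for 2 of the 6 other core clock genes tested, where 1.55% of all probe sets have it highest. These were Bmal1, the partner of CLOCK, at 12.4 and 15.0 against 7.98 to 10.6, and Bhlhe40, an E-box repressor, at 952 and 1175 against 203 to 808. The Bmal1 levels are near the floor of 7.50. The other night-phase genes tested, Clock, Cry1 and Nfil3, did not have both livers highest. The 2 livers of this pair had summed hepatocyte markers of 104699 and 103589, where all livers ran from 99457 to 123539, and the second of them is the liver with Acta1. Their β-actin ratios were 2.21 and 11.0. The part of tissue composition and RNA quality in the shared pattern was not tested. Whether the pair shared an hour of collection was not tested.

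The probe sets most like Dbp were found by Pearson's r of log2 level with 1438211_s_at over the 8 arrays, among 14363 probe sets with 1 symbol, as a description. The 5 other genes with the highest r were Trappc5 and Cox16 (0.94), Abcc8 and Fgf1 (0.93), and Upp2 (0.92), the liver uridine phosphorylase, which ranged from 149 to 1696. Trappc5, Cox16, Abcc8 and Fgf1 varied far less, by 1.32-, 1.63-, 1.65- and 2.02-fold over the 8 arrays. All 5 genes were lowest on GFP vehicle replicate 1, as was Dbp 1438211_s_at. Among the members, r with Dbp 1438211_s_at was 0.91 for Usp2 1417168_a_at, 0.83 for Dbp 1418174_at, 0.81 for Tef 1424175_at and 0.73 for Nr1d2. It was 0.63 for Usp2 1417169_at, 0.52 for Per3 1421087_at, 0.45 for Per2 and 0.41 for Tef 1438033_at. The remaining values were 0.36 for Cry1, a night-phase gene, 0.07 for Per1, -0.19 for Per3 1421086_at and -0.29 for Clock. The 8 arrays share their groups, so these values mix differences between groups with those within them.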

How the data were processed

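Liver RNA of 8 mice was measured on an Affymetrix mouse array. The values deposited by the authors are linear intensities, 1 for each probe set on each array. No source used here gives their summary method or scaling. Groups came from the labels. The members and gene lists were chosen with earlier results of these data known. Values were raised to 7.50 (20th percentile), log2-transformed and kept as scaled, since array medians differed by 0.141. The 15838 probe sets whose mean exceeded the 30th percentile entered a limma (3.58.1, R 4.3.3) analysis, 1 fit of 4 group means (4 residual and 2.93 prior degrees of freedom, eBayes with trend) and Benjamini-Hochberg adjustment; an adjusted p under 0.05 was called. The script was tested on simulated data. The labels do not state how replicates were taken beyond 1 array per mouse, so p-values measure the spread between these samples, and 2 arrays per group limit the precision. All member probe sets were named, then genes of the clock, output, glucocorticoid and temperature lists whose treatments did not overlap, then the 5 genes most like Dbp; Bmal1, Bhlhe40, Cry2, Rgs16, Nampt, Alas1 Lyve1, Acta1 and others of the lists were named after their values were seen. Replicate numbers did not pair the samples (correlations of deviations from -0.14 to 0.25 over 6 pairs of groups). Alternatives covered the normalization, floor, filter, spread, samples and block.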

Additional observations from a re-analysis of the deposited data

Results flagged for a closer look

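Of 53 member and list probe sets checked, 3 had effects of opposite direction in both settings of the other factor, with every array of a group on its own side. That is 5.66%, where 6.16% of all tested probe sets have this pattern. For Per1 (1449851_at) both vehicle livers with LXRα were above both with GFP, and both T0901317 livers with LXRα were below both with GFP; the interaction was -0.54 (adjusted p = 1, limma). For Pfkfb3 (1416432_at), an enzyme of glycolysis control, T0901317 livers were higher than vehicle livers with GFP and lower with LXRα, with an interaction of -1.84. For Cdkn1a (1424638_at), the cell cycle inhibitor p21, the directions were the other way round, with an interaction of 0.80; its LXRα livers were separated by 67.3 with T0901317 against 67.2 with vehicle. None of these interactions passed the limma test over all probe sets.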

How the results depend on the processing

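No member probe set was called in any comparison under any alternative run, apart from 1. That was leaving out 1 array at a time in the averaged T0901317 comparison, where 0 to 2 members were called, the 2 without LXRα T0901317 replicate 1; Hlf was called there too (2.01, adjusted p = 0.0499). With the replicate number as a block 0 members were called and the adjusted p of Per3 1421087_at was 0.123; the block changed no other call. Some averaged T0901317 differences near 0 changed sign. Quantile normalization put Per1 at -0.016. The β-actin covariate put Per1 at -0.15, Dbp 1418174_at at 0.34 and Tef 1438033_at at -0.078. It left the signs of Clock and Cry1 as they were, with larger differences of 0.51 (adjusted p = 0.156, limma) and -0.37 (adjusted p = 0.27, limma). Leaving out 1 array gave Per1 a range from -0.020 (lacking LXRα T0901317 replicate 2) to 0.25. It gave Cry1 -0.25 to 0.0042 and Clock -0.16 to 0.29, both turned by dropping LXRα T0901317 replicate 1. It gave Dbp 1438211_s_at -0.19 (lacking GFP vehicle replicate 1) to 0.89, and Dbp 1418174_at -0.77 to 0.33, turned by the loss of GFP T0901317 replicate 2 (0.33) or GFP vehicle replicate 2 (0.19). For Tef 1438033_at the range was -0.080 to 0.091, with 4 of the 8 arrays each turning its sign. The cause was not tested. With 1 array left out, the day-phase minus night-phase difference of LXRα and GFP livers under T0901317 ran from -0.10 to 1.23; the averaged T0901317 difference ran from 0.33 to 0.99 and the transgene difference in vehicle livers from 0.02 to 0.83. Leaving out the 3 T0901317 arrays of high β-actin ratio removes both GFP T0901317 arrays, so comparisons that use them gave no value. Probe sets near the floor, such as that of Nr1d1, set a limit on what could be measured.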

Other observations

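Glucocorticoid-induced genes, which follow the adrenal rhythm and stress, were all 10 tested, with 5 higher and 5 lower under T0901317, a median of 0.15 and 0 called by limma. Tsc22d3, a glucocorticoid-induced leucine zipper protein, was lower in all 4 T0901317 livers than in any vehicle liver, at -1.83 (SE 0.58, adjusted p = 0.149). Sgk1, a kinase, was highest in GFP vehicle replicate 1 and GFP T0901317 replicate 2, at 789.6 and 899.9 against 221 to 446 (chosen after its values were seen, as was Hspa1b). Of 10 temperature-responsive genes, which follow body temperature over the day, 8 were tested, with 5 higher, 3 lower, a median of 0.09 and 0 called. Hspa1b, an inducible chaperone, read 106 in GFP vehicle replicate 1 and 717 in GFP T0901317 replicate 2, so this pair of livers, alike for Dbp and Bmal1, lay at the opposite ends of the 8 for it.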
